A study of Mus musculus with 8 samples.

Results

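The matrix metalloproteinases, their tissue inhibitors and the ADAMTS proteases were described as 1 group of 42 genes: 20 Mmp, 4 Timp and 18 Adamts genes, out of 21938 protein-coding genes in the mouse annotation. The genes were taken by name. A locus was the gene body of the mm10 annotation with 20 kb added on each side, and every peak that overlapped this window by at least 1 bp was counted. The windows had a median length of 54.4 kb for Mmp, 69.7 kb for Timp and 173 kb for Adamts genes, against 57.4 kb over all protein-coding genes. Mmp20 and Mmp7 share part of their windows, as do Adamts8 and Adamts15, so a peak in the shared stretch was counted for both genes but only once in a total. The windows also hold start sites of other genes.

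Mouse embryonic fibroblasts (MEFs) were sampled at day 5 of reprogramming toward pluripotency with Oct4 and one of 2 forms of Nanog, and both arms carried Oct4. In the first arm (NanogWT) Nanog was unmodified. In the second arm (NanogBiD, labelled NanogN70+Oct4) an N-terminal stretch of SS18, a subunit of the BAF chromatin remodelling complex that binds the ATPase BRG1, was fused to Nanog. CUT&Tag uses an antibody to bring a transposase to its target, where it cuts and tags the neighbouring DNA. It was done for FLAG (the tag on NANOG), BRG1, H3K27ac and H3K4me1. Each arm and target has 1 peak list made from merged replicates, so there were 8 lists. No test between arms was possible, and no SD over cultures can be given. The intervals below are 95% intervals that cover counting error only.

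The members act on the space between cells. Most Mmp genes encode secreted zinc proteases that cut collagens, other matrix proteins and signalling proteins, while the membrane-type enzymes, such as those of Mmp14 and Mmp16, act at the cell surface. Timp genes encode the secreted inhibitors of these enzymes. Adamts genes encode secreted proteases with thrombospondin repeats: Adamts2, Adamts3 and Adamts14 process procollagens, and Adamts1, Adamts4, Adamts5, Adamts9 and Adamts20 cut proteoglycans. Fibroblasts are a main source of many of these proteins. H3K27ac is a mark of active promoters and enhancers, and H3K4me1 is found at enhancers whether active or not.

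The lists held 58940 FLAG peaks in NanogWT and 74782 in NanogBiD, 30859 and 53748 BRG1 peaks, 35452 and 42598 H3K27ac peaks, and 72242 and 57156 H3K4me1 peaks. Sequencing depth is unknown, and the scores and summit heights (the number of stacked tags at the highest point of a peak) are not scaled to it. Of 8 fibroblast markers, 7 had an H3K27ac peak within 2 kb of a start site in each arm, and Prrx1 had none in either. Of 7 pluripotency markers, 0 had such a peak in NanogWT and 2 (Sall4 and Tdgf1) in NanogBiD. Of the epithelial, immune and endothelial markers, 0 of 4, 2 of 5 and 0 of 3 had one in NanogWT, and 1 of 4, 3 of 5 and 1 of 3 in NanogBiD. The part of other cells in the results below was not tested. A mark present in fewer cells and a weaker mark in each cell cannot be told apart in these bulk samples.

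The regions below carried both FLAG and BRG1 in a single arm. They were ranked within the member loci by whichever of their FLAG and BRG1 scores was smaller. This smaller score ran from 109 to 176 at the NanogBiD-only regions shown. At the NanogWT-only regions shown it was 64.8 (Adamts10) and 55.9 (Timp3), near the lowest score of 50 in every list. The NanogWT-only regions at Adamts12 and Mmp28 are described without sequence. Each sequence is 101 bases centred on the FLAG summit, on the plus strand of GRCm38 (mm10). Capitals would mark a match to 1 of 4 consensus letters (AP-1 as TGACTCA, the OCT octamer as ATGCAAAT, TEAD as GGAATG and RUNX as TGTGGTT, on both strands), and these 8 windows held none. The first 6 are from regions seen in NanogBiD only, and the last 2 from regions seen in NanogWT only.
Adamts6, chr13:104363937-104364037: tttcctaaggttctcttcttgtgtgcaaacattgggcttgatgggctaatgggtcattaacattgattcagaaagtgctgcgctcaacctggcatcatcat
Adamts2, chr11:50738580-50738680: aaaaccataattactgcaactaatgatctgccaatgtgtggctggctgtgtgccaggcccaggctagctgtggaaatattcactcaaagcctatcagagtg
Adamts20, chr15:94482602-94482702: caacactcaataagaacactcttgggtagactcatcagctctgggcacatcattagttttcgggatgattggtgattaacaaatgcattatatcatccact
Adamts12, chr15:11053839-11053939: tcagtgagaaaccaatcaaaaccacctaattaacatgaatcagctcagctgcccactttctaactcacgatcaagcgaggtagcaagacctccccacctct
Adamts9, chr6:92762574-92762674: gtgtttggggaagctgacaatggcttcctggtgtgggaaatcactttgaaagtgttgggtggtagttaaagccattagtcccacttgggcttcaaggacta
Adamts8, chr9:30980444-30980544: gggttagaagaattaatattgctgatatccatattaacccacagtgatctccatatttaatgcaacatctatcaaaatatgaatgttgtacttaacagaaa
Adamts10, chr17:33504150-33504250: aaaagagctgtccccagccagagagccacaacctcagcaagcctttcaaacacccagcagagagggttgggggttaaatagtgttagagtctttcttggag
Timp3, chr10:86339696-86339796: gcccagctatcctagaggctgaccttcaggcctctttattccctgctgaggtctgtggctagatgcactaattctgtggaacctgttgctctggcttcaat

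BRG1 peaks at the matrix protease loci were more numerous with the fusion, H3K4me1 peaks were fewer, and the ratios of FLAG and H3K27ac peaks were near 1. BRG1 had 78 peaks at the member loci in NanogWT and 118 in NanogBiD (ratio 1.51, 1.13 to 2.04). FLAG went from 144 to 156 peaks (ratio 1.08, 0.858 to 1.37). H3K27ac went from 94 to 102 (1.09, 0.812 to 1.45). H3K4me1 went from 187 to 156 (0.834, 0.670 to 1.04). All protein-coding loci together had a ratio of 1.24 for FLAG peaks, 1.56 for BRG1, 1.159 for H3K27ac and 0.798 for H3K4me1. Each of these lay within the interval of the members, so no target set the members apart from the annotation by its number of peaks. The directions of all 4 targets turned when the counts were divided by the size of each list. The ratio was then 0.854 for FLAG, 0.869 (0.647 to 1.17) for BRG1, 0.903 for H3K27ac and 1.05 for H3K4me1. This division moves every locus by the same factor, the ratio of the whole lists (1.27, 1.74, 1.202 and 0.791), and the directions of all protein-coding loci together turned as well, so it says nothing of the members in particular. When each list was cut to its 20000 best-scoring peaks the members held 44 BRG1 peaks in NanogWT and 42 in NanogBiD (ratio 0.955).

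By number, most of the BRG1 difference lay in the Adamts loci, which cover 3028 of the 4687 kb of the member windows. Their loci held 36 BRG1 peaks in NanogWT and 67 in NanogBiD (ratio 1.86, 1.22 to 2.87). The Mmp loci held 30 and 38 (1.27, 0.764 to 2.12), and the Timp loci 12 and 13 (1.08, 0.456 to 2.60). The intervals of the 3 subfamilies overlap, and each holds the ratio of 1.56 of all protein-coding loci. Per 100 kb of covered sequence, all protein-coding loci had 1.74 BRG1 peaks in NanogWT and 2.72 in NanogBiD. The Adamts loci had 1.19 and 2.21, the Mmp loci 2.17 and 2.75, and the Timp loci 4.31 and 4.66. The Adamts loci were thus the most thinly covered by BRG1 in both arms, and the distance to the Mmp loci was smaller in NanogBiD. FLAG peaks at the Adamts loci numbered 90 and 95. H3K27ac peaks numbered 48 and 54 there, and H3K4me1 peaks 108 and 89. Without Adamts12, the locus with the most BRG1 peaks, the Adamts loci held 33 and 55 BRG1 peaks (1.67, 1.06 to 2.65). Divided by list size the BRG1 ratio was 1.07 (0.702 to 1.65) at the Adamts loci and 0.727 at the Mmp loci.

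Counted by gene, 22 of the 42 members had more BRG1 peaks in NanogBiD, 10 had fewer and 10 had the same number. Over all protein-coding loci 42.1% had more and 10.1% fewer. Of the 18 Adamts genes, 12 had more and 4 fewer, of the 20 Mmp genes 8 and 5, and of the 4 Timp genes 2 and 1. FLAG peaks were more numerous at 19 members and fewer at 13 (40.9% and 14.4% of all loci). H3K27ac peaks were more numerous at 13 and fewer at 11 (29.1% and 13.5%). H3K4me1 peaks were more numerous at 8 and fewer at 24 (16.3% and 42.5%), and fewer at all 4 Timp genes. When each list was cut to 20000 peaks the directions by gene turned for FLAG, BRG1 and H3K27ac. Of the members that differed, 38.5% then had more FLAG peaks in NanogBiD (59.4% with the full lists), 38.9% more BRG1 peaks (68.8%) and 23.1% more H3K27ac peaks (54.2%).

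**Figure D1:**
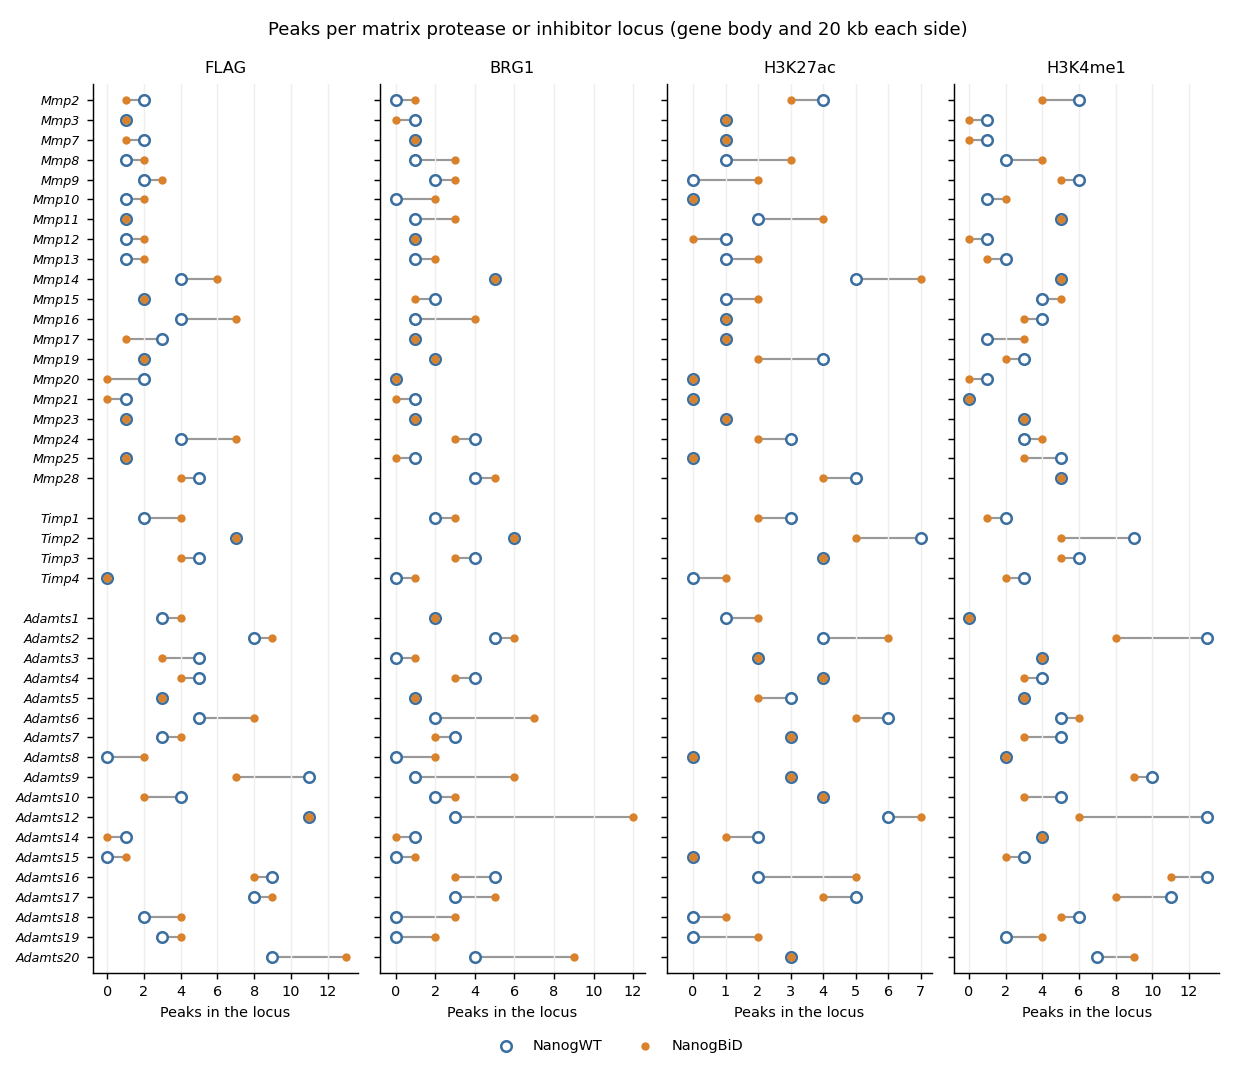
Number of peaks (horizontal axis) in the locus of each of the 42 members (rows), 1 panel per target; open blue circles are NanogWT, filled orange circles are NanogBiD, and the line joins the 2 lists. In the BRG1 panel Adamts12 moves from 3 to 12 peaks and Adamts20 from 4 to 9, and in the H3K4me1 panel Adamts12 moves from 13 to 6.

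Among the metalloproteinases, the largest difference in the sum of FLAG, BRG1 and H3K27ac peaks was at Mmp16, a membrane-type enzyme (chr4:17852893-18119145). It held 4 FLAG, 1 BRG1, 1 H3K27ac and 4 H3K4me1 peaks in NanogWT, and 7, 4, 1 and 3 in NanogBiD. The FLAG and BRG1 regions seen in NanogBiD only all lay inside introns. The tallest of these BRG1 peaks, with a summit of 20 tags, was 189 kb from the gene start, on a region where FLAG had 23 tags in NanogWT and 27 in NanogBiD. The promoter of Mmp16 had FLAG summits of 23 and 17 tags, BRG1 summits of 18 and 18, and H3K27ac summits of 21 and 29.

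Mmp14, which encodes the main membrane-type collagenase and activates the product of Mmp2, held 4 FLAG, 5 BRG1, 5 H3K27ac and 5 H3K4me1 peaks in NanogWT and 6, 5, 7 and 5 in NanogBiD. Its promoter had summits of 13 and 12 tags for FLAG, 13 and 12 for BRG1, and 33 and 31 for H3K27ac. Mmp11, the stromelysin of stromal cells, went from 1 to 3 BRG1 peaks and from 2 to 4 H3K27ac peaks with 1 FLAG peak in each arm. All 3 of its BRG1 regions lay within 2 kb of a start site of another gene (Smarcb1, Chchd10 or Vpreb3). Mmp9, the gene of gelatinase B, had 2 FLAG, 2 BRG1, 0 H3K27ac and 6 H3K4me1 peaks in NanogWT and 3, 3, 2 and 5 in NanogBiD. Upstream of Mmp9, at -16.2 kb from its start, FLAG had 9 and 21 tags, and BRG1 (15 tags) and H3K27ac (15 tags) had a peak in NanogBiD only. Mmp2, the gene of gelatinase A and a fibroblast product, had H3K27ac at its start with 11 tags in each arm and H3K4me1 with 23 and 15 tags. FLAG (8 tags) was seen there in NanogWT only, and the single BRG1 peak of the locus (8 tags) was in NanogBiD only, at -6.03 kb.

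A run of 7 member genes on chromosome 9, from Mmp13 to Mmp7, includes the collagenases Mmp8 and Mmp13, the stromelysins Mmp3 and Mmp10, the macrophage elastase gene Mmp12, Mmp20 and Mmp7. The peaks of this run lay mostly outside the promoters. Mmp3, Mmp10 and Mmp13 had no peak within 2 kb of a start site in any of the 8 lists. The tallest FLAG peak of the run lay at -9.56 kb from the start of Mmp13, with 39 tags in NanogWT and 22 in NanogBiD, and BRG1 there had 13 and 20. FLAG beyond Mmp7, at 21.7 kb from its start, had 29 and 20 tags, and inside Mmp3 it had 20 and 11. FLAG 1 kb upstream of the Mmp12 start had 27 and 20 tags. These 4 shared FLAG summits were lower in NanogBiD, while the other two of the run, beside Mmp8 (12 and 13 tags) and Mmp10 (8 and 14 tags), were higher. BRG1 inside Mmp3 (10 tags) was seen in NanogWT only.

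Further along the same run, the stretch between Mmp10 and Mmp8 had peaks in NanogBiD that NanogWT lacked. Mmp10 had 1 FLAG and 0 BRG1 peaks in NanogWT and 2 and 2 in NanogBiD. Mmp8 went from 1 to 2 FLAG, 1 to 3 BRG1, 1 to 3 H3K27ac and 2 to 4 H3K4me1 peaks. At -12.7 kb from the start of Mmp8 a region had FLAG (14 tags), BRG1 (8), H3K27ac (10) and H3K4me1 (13) in NanogBiD and no peak of any target in NanogWT. Mmp20, the enamelysin gene of tooth enamel, had 2 FLAG peaks and 1 H3K4me1 peak in NanogWT and no peak in NanogBiD. One of the FLAG peaks is that at the start of Mmp7, which its window shares. Mmp20 was the single member with no BRG1 peak in either arm.

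AP-1 sites are well known from the promoters of collagenase and stromelysin genes, and 5 of the 7 genes of this run had the AP-1 letters. Of 31 RefSeq promoter windows of 28 members (250 bases before to 50 after a start, GRCm38.p6), 5 held TGACTCA on either strand, and all 5 belong to this run: Mmp13, Mmp12, Mmp3, Mmp10 and Mmp7. The windows of Mmp8 and Mmp20 held none of the 4 motifs. Over all 32619 RefSeq promoter windows 5.22% held it. A FLAG peak overlapped 13 of the 31 windows in NanogWT and 6 in NanogBiD. The share of all RefSeq windows with a FLAG peak was not counted, so no difference particular to the members can be read from these counts. Among the 5 windows with the AP-1 letters, that of Mmp7 had a FLAG peak, with 8 tags in NanogWT. The others of the 5 had no peak in any list. A match is a description of the sequence and not a site of binding. The 250 bases before the start are shown for Mmp7, the window with FLAG, and for Mmp13, a window with no peak. Both genes are on the plus strand, and capitals mark the AP-1 letters or their reverse complement and, in Mmp13, also those of RUNX.
Mmp7 promoter: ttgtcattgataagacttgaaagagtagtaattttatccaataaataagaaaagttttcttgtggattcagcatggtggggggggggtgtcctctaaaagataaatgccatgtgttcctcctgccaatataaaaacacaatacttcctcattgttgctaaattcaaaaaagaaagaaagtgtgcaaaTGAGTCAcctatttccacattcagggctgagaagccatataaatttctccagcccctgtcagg
Mmp13 promoter: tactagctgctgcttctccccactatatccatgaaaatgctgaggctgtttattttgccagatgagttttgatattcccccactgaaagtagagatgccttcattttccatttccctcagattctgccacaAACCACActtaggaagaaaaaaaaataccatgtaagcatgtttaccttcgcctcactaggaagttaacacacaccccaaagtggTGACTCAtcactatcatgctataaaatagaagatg

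The inhibitor genes had nearly equal numbers of FLAG peaks (14 and 15) and BRG1 peaks (12 and 13) in the arms. With each list cut to 20000 peaks they had 6 and 2 BRG1 peaks (ratio 0.333). Timp2, a broadly expressed inhibitor that also takes part in activating the Mmp2 product, had the most peaks of the inhibitor genes, with 7 FLAG, 6 BRG1, 7 H3K27ac and 9 H3K4me1 peaks in NanogWT and 7, 6, 5 and 5 in NanogBiD. BRG1 at its promoter had 20 tags in NanogWT and no peak in NanogBiD, while H3K27ac there had 27 tags in each arm and FLAG had 11 and 15. Timp3, which binds to the matrix and lies within an intron of Syn3, had 5 FLAG, 4 BRG1, 4 H3K27ac and 6 H3K4me1 peaks in NanogWT and 4, 3, 4 and 5 in NanogBiD. Its promoter had FLAG summits of 15 and 29 tags, BRG1 of 16 and 21, and H3K27ac of 19 and 25. The region at 39.4 kb from the Timp3 start, whose sequence is given above, had FLAG (9 tags) and BRG1 (11 tags) in NanogWT only and kept H3K27ac with 18 and 15 tags.

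Timp1, on the X chromosome, had 2 FLAG and 2 BRG1 peaks in NanogWT and 4 and 3 in NanogBiD. At its promoter H3K27ac had 34 tags in NanogWT and 22 in NanogBiD. Timp4 had no FLAG peak in either arm, and had 1 BRG1 peak (7 tags) and 1 H3K27ac peak (10 tags) in NanogBiD only. The 4 inhibitor genes together had 20 H3K4me1 peaks in NanogWT and 13 in NanogBiD (ratio 0.650, 0.297 to 1.37), and with the cut lists 4 and 6 (ratio 1.5).

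Adamts12, Adamts20 and Adamts6 had the largest differences of all members in the sum of FLAG, BRG1 and H3K27ac peaks. Adamts12 (chr15:11064790-11349231) held 11 FLAG, 3 BRG1, 6 H3K27ac and 13 H3K4me1 peaks in NanogWT and 11, 12, 7 and 6 in NanogBiD. The number of FLAG peaks was equal, but they were not all at the same places: 4 regions had FLAG and BRG1 in NanogBiD only, 3 had FLAG in both arms and BRG1 in NanogBiD only, and 1, over the first exon, had FLAG and BRG1 (8 tags each) in NanogWT only. A separate BRG1 peak of 10 tags at -0.498 kb was seen in NanogBiD only, so the promoter had BRG1 in both arms. The region at -10.9 kb, shown above, had peaks of all 4 targets in NanogBiD (19, 13, 11 and 15 tags) and of none in NanogWT. At 275 kb from the start FLAG had 23 and 31 tags, and BRG1 (20 tags) and H3K27ac (11 tags) were seen in NanogBiD only. At 291 kb, past the gene end, all 4 targets had a peak in both arms, and H3K27ac went from 10 to 27 tags and BRG1 from 12 to 19.

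Adamts20 (chr15:94270163-94465418), a versican-cutting protease, had 9 FLAG, 4 BRG1, 3 H3K27ac and 7 H3K4me1 peaks in NanogWT and 13, 9, 3 and 9 in NanogBiD. It held 5 regions where FLAG and BRG1 were both seen in NanogBiD only, more than any other member. In an intron at 123 kb from its start FLAG had 20 tags in NanogWT and 42 in NanogBiD, and BRG1 (29 tags), H3K27ac (16) and H3K4me1 (18) had a peak in NanogBiD only. The region upstream of the gene at -17.2 kb, shown above, had FLAG (26 tags) and BRG1 (16 tags) in NanogBiD only and neither mark in either arm.

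Adamts6 (chr13:104287835-104496695) had 5 FLAG, 2 BRG1, 6 H3K27ac and 5 H3K4me1 peaks in NanogWT and 8, 7, 5 and 6 in NanogBiD. Its intronic region at 76.2 kb, the first sequence above, had the tallest FLAG summit of the regions with both proteins in NanogBiD only, at 41 tags, with 19 tags of BRG1, 12 of H3K4me1 and no H3K27ac peak. By contrast the Adamts6 promoter was nearly even, with FLAG at 32 and 32 tags, BRG1 at 19 and 20, and H3K27ac at 34 and 31. Adamts2 had a similar intronic region at 137 kb, with 33 tags of FLAG and 17 of BRG1 in NanogBiD and neither mark. Adamts9, another versican- and aggrecan-cutting protease, had 11 FLAG and 1 BRG1 peaks in NanogWT and 7 and 6 in NanogBiD. Past its end, at 181 kb from the start, FLAG (20 tags), BRG1 (11 tags) and H3K4me1 (11 tags) were seen in NanogBiD only. In the other direction, a region upstream of Adamts10, whose sequence is given above, had FLAG (12 tags) and BRG1 (9 tags) in NanogWT only, with H3K27ac at 15 and 10 tags, and the Mmp28 promoter had FLAG (12 tags) and BRG1 (13 tags) in NanogWT only, with H3K27ac at 26 and 22 tags.

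**Figure D2:**
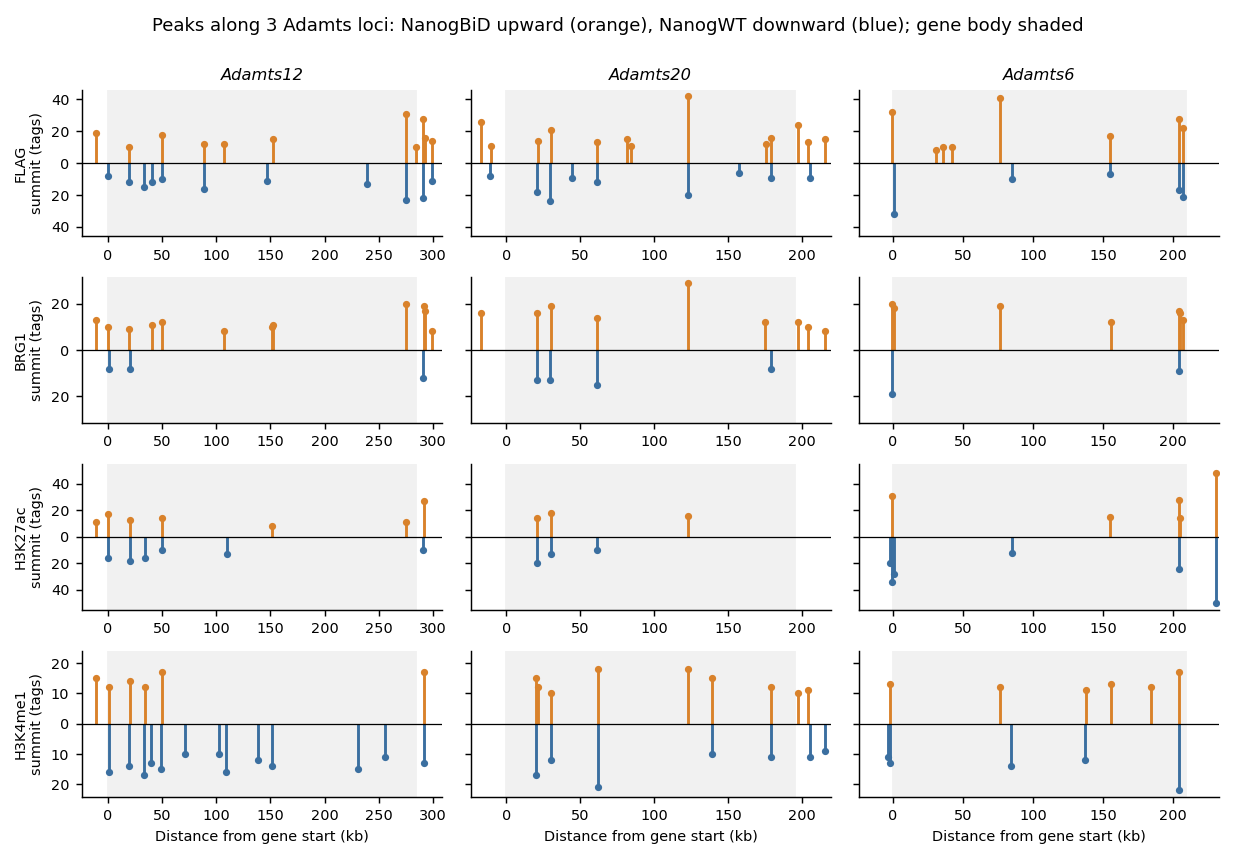
Peaks along the Adamts12, Adamts20 and Adamts6 loci (columns) for the 4 targets (rows); the horizontal axis is the distance in kb from the gene start in the direction of transcription, and the height of each line is the summit in tags, upward in orange for NanogBiD and downward in blue for NanogWT. The BRG1 row has 12, 9 and 7 lines upward against 3, 4 and 2 downward, most of them far from the gene start.

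Adamts18 and Adamts19 had BRG1 in NanogBiD alone. Adamts18 went from 2 FLAG, 0 BRG1, 0 H3K27ac and 6 H3K4me1 peaks to 4, 3, 1 and 5, and all 3 BRG1 peaks were intronic with summits of 11, 15 and 8 tags. Adamts19 went from 3, 0, 0 and 2 peaks to 4, 2, 2 and 4, and at both BRG1 regions FLAG was present in both arms, with 12 and 27 tags at the first and 21 and 28 at the second. Their promoters had neither FLAG nor BRG1 nor H3K27ac in any list, but had H3K4me1 in both arms (18 and 15 tags at Adamts18, 16 and 20 at Adamts19).

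In all, 8 members had BRG1 peaks in NanogBiD alone: Mmp2, Mmp10, Timp4, Adamts3, Adamts8, Adamts15, Adamts18 and Adamts19. Another 4 had them in NanogWT alone: Mmp3, Mmp21, Mmp25 and Adamts14. Over all protein-coding loci the shares were 6.54% and 1.55%. Of these 12 members 11 had 1 or 2 BRG1 peaks, and Adamts18 had 3. Adamts8 and Adamts15 share 1 of these peaks (8 tags), at the Adamts15 start, and Adamts8 had a second one of 10 tags at 37.9 kb with 19 tags of FLAG. Mmp21 had 8 tags each of FLAG and BRG1 in NanogWT only, at 1 region in an intron of Edrf1. Adamts14, a procollagen protease, had BRG1 (12 tags) at its start in NanogWT only, where H3K27ac went from 15 to 10 tags. Mmp25 had 1 exonic BRG1 peak (12 tags) in NanogWT only, and 5 and 3 H3K4me1 peaks, a difference as large as at Mmp2 (6 and 4). Adamts3, another procollagen protease, had 1 BRG1 peak (17 tags) at 208 kb from its start, beyond the gene end, where FLAG had 12 and 18 tags.

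At a few shared regions the BRG1 summit was much taller in NanogBiD, with or without a taller FLAG summit. These were chosen after their values were seen. Beyond the end of Adamts16, at 127 kb from its start, FLAG had 28 and 62 tags, BRG1 12 and 42, and H3K27ac 14 and 31. Beyond Adamts4, the aggrecanase-1 gene, at 13.1 kb from its start, FLAG had 26 and 52 tags and BRG1 21 and 43, with H3K27ac at 31 and 33. Past the end of Adamts17, at 329 kb, FLAG had 45 and 44 tags while BRG1 had 13 and 34. The opposite held in an intron of Adamts5, the aggrecanase-2 gene, at 14.1 kb: FLAG had 29 tags in NanogWT and 8 in NanogBiD, and BRG1 (9 tags) and H3K27ac (10 tags) were seen in NanogWT only.

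Summit heights were then compared over all shared regions of the members, as the median log2 ratio of NanogBiD to NanogWT. This was 0.24 at 96 FLAG regions (0.07 to 0.35) and 0.06 at 51 BRG1 regions (-0.10 to 0.19). It was -0.04 at 73 H3K27ac regions (-0.13 to 0.07) and -0.21 at 113 H3K4me1 regions (-0.26 to -0.11). Over all protein-coding loci the medians were 0.15, 0.10, 0.07 and -0.18. Those for FLAG, BRG1 and H3K4me1 lay inside the members' intervals, and that for H3K27ac lay just above. With scores in place of heights the FLAG median of the members was -0.02, the BRG1 median 0.27 and the H3K27ac median 0.07. Depth and height cannot be told apart in these medians.

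When the peaks of both arms were merged into regions, the share seen in a single arm differed by target. Of 141 BRG1 regions in member loci 25 (17.7%, Wilson interval 12.3 to 24.9%) were seen in NanogWT only and 65 (46.1%, 38.1 to 54.3%) in NanogBiD only, against 10.8% and 42.8% of all BRG1 regions in protein-coding loci. Of 204 FLAG regions 48 (23.5%, 18.2 to 29.8%) were NanogWT only and 60 (29.4%, 23.6 to 36.0%) NanogBiD only, against 15.4% and 31.6%. The NanogWT-only shares of both targets were above those of the annotation, whose values lay below the members' intervals. The NanogWT-only BRG1 share became 5.88% where a score of at least 100 was required and 28.8% with each list cut to 20000 peaks, and the NanogBiD-only share was 25.4% with the cut lists. Of 116 H3K27ac regions 16 were NanogWT only and 27 NanogBiD only (14.1% and 26% of all), and of 226 H3K4me1 regions 73 and 40 (33.3% and 16.3% of all).

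**Figure D3:**
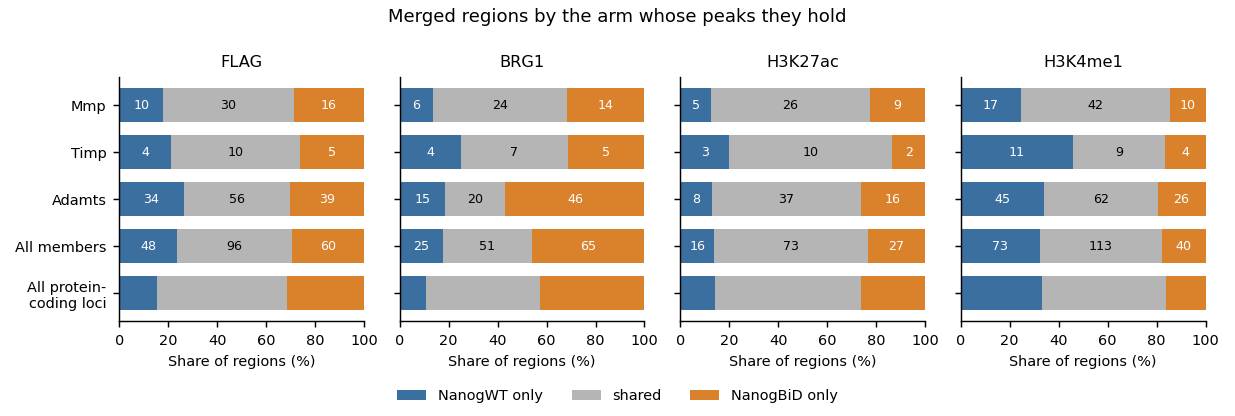
Share of merged regions (horizontal axis, percent) seen in NanogWT only (blue), in both arms (grey) and in NanogBiD only (orange), for the 3 subfamilies, all members and all protein-coding loci, 1 panel per target; the numbers in the member bars are regions. In the BRG1 panel the Adamts bar is 46 of 81 regions NanogBiD only, against 14 of 44 for Mmp and 5 of 16 for Timp.

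FLAG and BRG1 were next read together. The 4 lists of both targets gave 224 regions in the member loci. FLAG was in NanogBiD only at 59, and 23 of them (39.0%, 27.6 to 51.7%) also had BRG1 in NanogBiD only, near the 34.7% of all protein-coding loci. These 23 regions were spread over 15 members. They were 17 of the 38 regions with FLAG in NanogBiD only in Adamts loci (44.7%, 30.1 to 60.3%), 4 of 16 in Mmp loci (25%, 10.2 to 49.5%) and 2 of 5 in Timp loci (40%, 11.8 to 76.9%). Each interval holds the 34.7%. FLAG was in both arms at 95 regions, and at 26 of them (27.4%, 19.4 to 37.1%) BRG1 was in NanogBiD only, near the 27.8% of all loci. These 26 were 21 of the 56 regions with FLAG in both arms in Adamts loci (37.5%, 26.0 to 50.6%), 5 of 30 in Mmp loci (16.7%, 7.34 to 33.6%) and 0 of 9 in Timp loci (up to 29.9%). Each interval holds the 27.8%. The reverse, FLAG in both arms with BRG1 in NanogWT only, held for 12 of the 95 (12.6%, 7.38 to 20.8%), against 3.39% of all loci. These 12 were at Adamts16 (2), Adamts7 (2), Adamts2, Adamts4, Adamts5, Adamts20, Mmp3, Mmp24, Timp1 and Timp2. FLAG was in NanogWT only at 48 regions, of which 6 (12.5%, 5.86 to 24.7%) had BRG1 in NanogWT only, near the 11.9% of all loci.

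The distance to start sites differed between these classes. None of the 23 where both proteins were seen in NanogBiD only lay within 2 kb of a start site of any protein-coding gene (0 of 23, Wilson interval up to 14.3%), against 13.5% of such regions in all protein-coding loci. Of the 26 with FLAG in both arms and BRG1 in NanogBiD only, 3 were (11.5%, 4.003 to 29.0%, against 14.4%). Of the 13 with BRG1 in NanogBiD only and no FLAG in either arm 7 were (53.8%, 29.1 to 76.8%, against 22.0%). Of the 6 with both proteins in NanogWT only 3 were (50%, 18.8 to 81.2%, against 27.01%), and of the 47 with both proteins in both arms 27 were (57.4%, 43.3 to 70.5%, against 55.3%).

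Few of the 23 regions carried H3K27ac. A peak of this mark was there in NanogBiD only at 3, in both arms at 1 and in neither at 19. The 3 regions with H3K27ac in NanogBiD only are 13.04% (4.54 to 32.1%), against 24.4% over all protein-coding loci, a value inside the interval. H3K4me1 was there in NanogBiD only at 7 (30.4%, 15.6 to 50.9%, against 17.6%) and in NanogWT only at 2 (8.70%, against 7.98%). No such region had H3K4me1 in NanogBiD only when each list was cut to 20000 peaks (0 of 8) or when summits of at least 15 tags were required (0 of 9). Where FLAG was in both arms and BRG1 in NanogBiD only, 7 of 26 regions had H3K27ac in NanogWT and 14 of 26 in NanogBiD (26.9% and 53.8%, against 26.8% and 54.3% of such regions in all protein-coding loci). Of the 6 regions with both proteins in NanogWT only, 4 had H3K27ac in NanogWT and 5 in NanogBiD (66.7% and 83.3%, against 65.6% and 39.1% of such regions in all protein-coding loci).

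**Figure D4:**
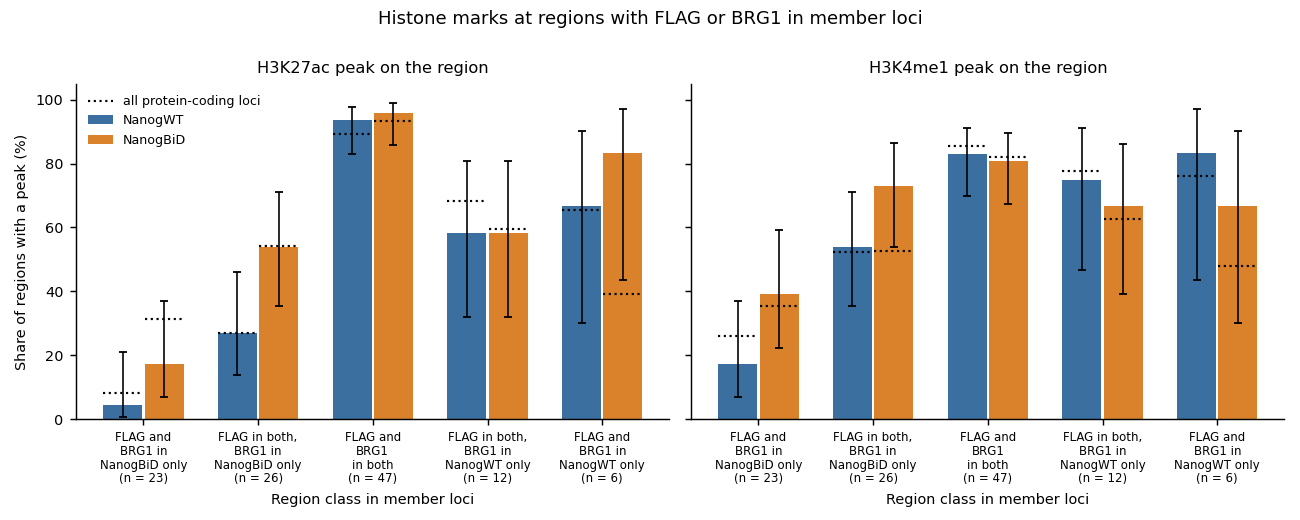
Share of regions in member loci (vertical axis, percent) with an H3K27ac peak (left) or an H3K4me1 peak (right), by where FLAG and BRG1 were seen; blue bars are NanogWT, orange bars NanogBiD, error bars are Wilson 95% intervals, dotted lines the same share over all protein-coding loci, and n is the number of member regions. At the 26 regions with FLAG in both arms and BRG1 in NanogBiD only, the H3K27ac share is 26.9% in NanogWT and 53.8% in NanogBiD.

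FLAG was called at fewer member promoters with the fusion. Of the 42 members, 23 had a FLAG peak within 2 kb of a start site in NanogWT and 18 in NanogBiD (54.8% and 42.9%, with Wilson intervals 39.9 to 68.8% and 29.1 to 57.8%, against 55.2% and 56.8% of all protein-coding genes). The 6 genes with it in NanogWT alone were Mmp2, Mmp7, Mmp15, Mmp28, Adamts2 and Adamts12, with summits of 8 to 12 tags, and Adamts4 had it in NanogBiD alone (19 tags), where a NanogWT peak of 18 tags in the same merged region ended outside the 2 kb. Over all genes 3.74% had a FLAG promoter peak in NanogWT alone and 5.31% in NanogBiD alone. With a score of at least 100 the difference was gone, with FLAG at 12 member promoters in each arm. BRG1 was at 21 and 20 member promoters (50% and 47.6%, against 53.9% and 55.5% of all genes), with 4 in NanogWT alone (Mmp28, Timp2, Adamts7 and Adamts14) and 3 in NanogBiD alone (Mmp11, Adamts5 and Adamts15), against 3.61% and 5.15% of all genes.

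H3K27ac was at 23 member promoters in NanogWT and 26 in NanogBiD (54.8% and 61.9%, against 57.1% and 59.9% of all genes). It was in NanogWT alone at Mmp19 and Adamts20 and in NanogBiD alone at Mmp9, Mmp15, Timp4, Adamts2 and Adamts16, against 1.44% and 4.29% of all genes. The tallest of the 5 was Adamts16 with 15 tags. H3K4me1 was at 33 and 32 member promoters (78.6%, 64.1 to 88.3%, and 76.2%, 61.5 to 86.5%, against 63.3% and 62.0% of all genes, of which the first lay just below its interval), with 3 in NanogWT alone and 2 in NanogBiD alone, against 5.5% and 4.24% of all genes. For FLAG, BRG1 and H3K27ac the tallest member promoter was that of Adamts1, a protease of early stress and ovulation responses, which had no H3K4me1 peak in either arm. It had FLAG at 39 and 36 tags, BRG1 at 35 and 29, and H3K27ac at 36 and 42. Of the 42 promoters, 14 had no H3K27ac peak in either arm, among them those of Mmp3, Mmp10, Mmp12, Mmp13 and Mmp20. In each arm the share of members with the mark was near that of all genes, so this count does not set the members apart.

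**Figure D5:**
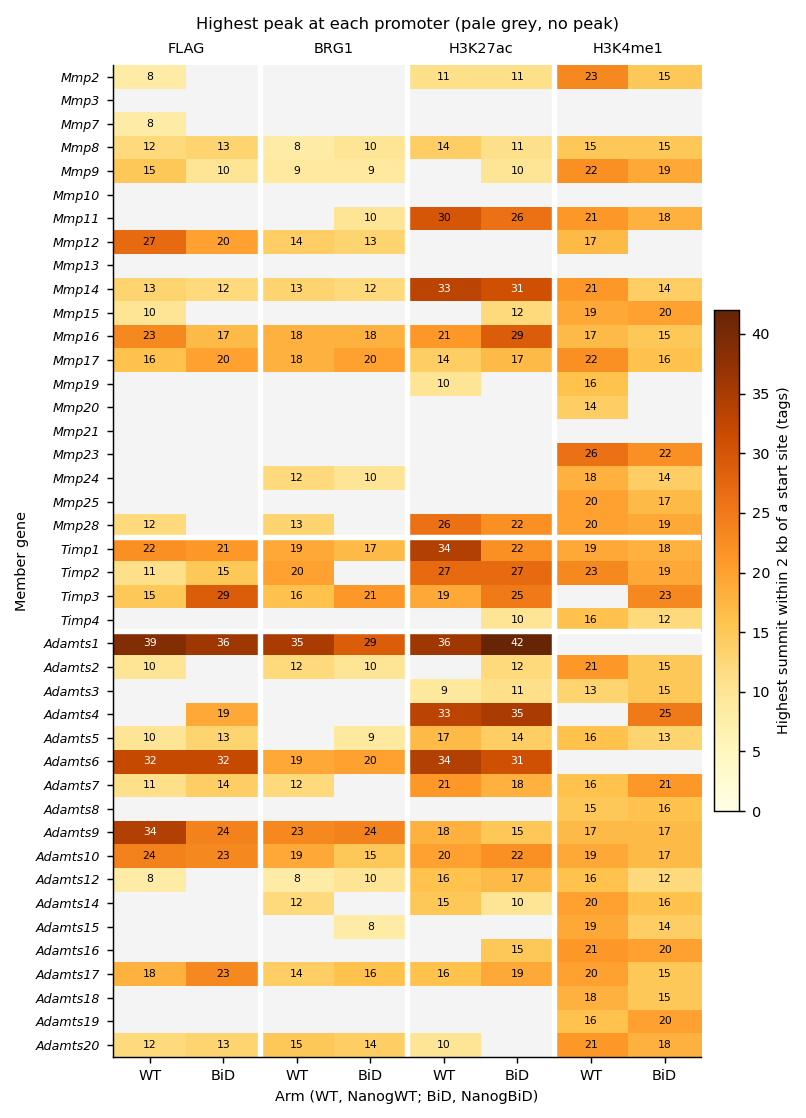
Highest summit, in tags, within 2 kb of any start site of each member (rows) in each of the 8 lists (columns, NanogWT then NanogBiD for each target); darker cells are taller and pale grey cells have no peak. FLAG is filled for 23 members in NanogWT and 18 in NanogBiD, and the rows of Mmp3, Mmp10, Mmp13 and Mmp21 have no peak in any list.

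The consensus letters were looked for within 50 bp of the FLAG summits. AP-1 letters were at 7 of 204 member FLAG regions (3.43%, 1.67 to 6.91%), against 6.98% of all 88179 FLAG regions, and at 5 of the 204 windows placed 1 kb away. The OCT octamer was at 2 (0.980%, against 2.29%), TEAD at 11 (5.39%, against 7.05%) and RUNX at 5 (2.45%, against 3.34%). The AP-1 share of all FLAG regions lay just above the members' interval, and those of the other motifs lay inside. For each motif the member interval overlapped that of the windows 1 kb away, so these few matches cannot show a difference between the 2 places. Over all FLAG regions the AP-1 share 1 kb away was 1.69%. The 7 regions with AP-1 letters were 2 in Timp2 and 1 each in Adamts12, Mmp24, Mmp16, Adamts3 and Adamts17, of which 4 were in NanogBiD only, 1 in NanogWT only and 2 shared. They are shown where BRG1 was also called in NanogBiD, with the AP-1 letters in capitals (plus strand, GRCm38). At the Adamts12 region FLAG was in NanogWT (12 tags) and BRG1 in NanogBiD (11 tags), at the Adamts3 region FLAG was in both arms, and at the Timp2 and Mmp16 regions FLAG and BRG1 were in NanogBiD only, with 15 and 14 tags and with 13 and 7 tags.
Adamts12, chr15:11105264-11105364: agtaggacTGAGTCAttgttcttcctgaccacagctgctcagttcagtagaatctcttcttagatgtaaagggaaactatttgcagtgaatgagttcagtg
Adamts3, chr5:89675203-89675303: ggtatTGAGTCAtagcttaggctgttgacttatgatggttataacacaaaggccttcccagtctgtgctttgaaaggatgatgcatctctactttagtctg
Timp2, chr11:118346919-118347019: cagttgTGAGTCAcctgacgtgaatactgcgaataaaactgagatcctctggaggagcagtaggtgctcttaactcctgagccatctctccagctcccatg
Mmp16, chr4:17864969-17865069: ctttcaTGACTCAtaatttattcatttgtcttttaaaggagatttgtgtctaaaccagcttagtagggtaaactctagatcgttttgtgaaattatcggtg

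The other genes of matrix proteolysis were counted in the same way. A list of 39 genes (the plasminogen system, activators and other inhibitors, membrane ADAM proteases, ADAMTS-like proteins, astacins, cathepsins and proteoglycan substrates) held 109 BRG1 peaks in NanogWT and 175 in NanogBiD (ratio 1.61, 1.26 to 2.06), with more at 22 genes and fewer at 7 of 39. Its ratios were near those of all protein-coding loci, 1.56 for BRG1 and 1.24 for FLAG, where 42.1% of loci had more BRG1 peaks and 10.1% fewer, and 40.9% more FLAG peaks and 14.4% fewer. FLAG went from 193 to 240 peaks (1.24, 1.02 to 1.51), with more at 24 genes and fewer at 6. H3K27ac went from 115 to 140, with more at 20 and fewer at 5, against a ratio of 1.159 over all protein-coding loci, with 29.1% more and 13.5% fewer. H3K4me1 went from 243 to 189, with more at 8 and fewer at 25, against a ratio of 0.798, with 16.3% more and 42.5% fewer. The intervals of its groups overlapped, and no difference between groups was tested. The membrane ADAM proteases had more FLAG peaks at 8 of 8 genes (45 and 65 peaks, ratio 1.44, 0.973 to 2.16) and more BRG1 peaks at 6 (25 and 45, ratio 1.8, 1.08 to 3.06). The plasminogen system had more FLAG peaks at 3 of 7 and fewer at 1 (24 and 26, ratio 1.08, 0.598 to 1.97) and more BRG1 peaks at 4 and fewer at 2 (18 and 22, ratio 1.22, 0.626 to 2.42). The proteoglycan substrates had more FLAG peaks at 2 of 4 and fewer at 2 (9 and 13, ratio 1.44, 0.571 to 3.83) and more BRG1 peaks at 1 and fewer at 2 (8 and 8, 0.327 to 3.06). The ADAM proteases were singled out after their values were seen.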

How the data were processed

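CUT&Tag for FLAG, BRG1, H3K27ac and H3K4me1 was done in MEFs at day 5, and each of the 8 groups has 1 peak list. Per the submitters' processing notes and the methods, the authors trimmed reads (Trim Galore 0.6.4), aligned them to mm10 (Bowtie2 2.4.5), removed repetitive, low-quality and mitochondrial reads (SAMtools 1.16.1), merged replicates and called peaks (MACS 1.4.2); no control library is named. The authors deposited for each peak a score (derived by the caller from its p-value, lowest 50 in every list) and, in a second file, the height of the summit as a tag pileup signal. Neither is scaled to depth, which is unknown, so the precision of depth cannot be given. Merging was done before deposit, so replicate spread is not analysed here.

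Peaks were assigned to loci of the GENCODE annotation of GRCm38 (gene body and 20 kb either side, overlap of at least 1 bp). Peaks of both arms that overlapped were merged into regions, and each target was called in NanogWT only, in both arms or in NanogBiD only. A promoter was 2 kb either side of any annotated start site. Ratios have exact binomial intervals, shares Wilson intervals and medians order-statistic intervals, all at 95%. With 1 list per group no test between arms was made. Python 3.11.15, pandas 2.3.3, NumPy 2.4.6, SciPy 1.17.1 and pysam 0.24.0 were used, and the code was tested on simulated peaks. Sequences were read from the RefSeq GRCm38.p6 genome and promoter tables; chromosome 18, which holds Adamts19, was left out of the sequences shown.

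The members and lists were chosen with earlier results of these data known. Genes given in full were, per subfamily, those with the largest difference in FLAG, BRG1 and H3K27ac peaks (5 Mmp, 2 Timp and 5 Adamts genes), those with BRG1 in one arm only and those with the most H3K4me1 peaks lost, beside the regions ranked by score; other regions are said to have been chosen after their values were seen, or illustrate these genes. Alternatives were another score threshold, list size, summit height, window, merging gap, promoter width and motif window, and leaving out single members or neighbours' promoters.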

Additional observations from a re-analysis of the deposited data

How the results depend on the processing

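Of 323 alternative values for 49 results, 264 stayed inside the interval of the reported value (for counts, within 1.5-fold) and 14 results did so under every alternative; the cause of the others was not tested. With counts divided by list size, the ratio of peaks crossed 1 for FLAG (0.854), BRG1 (0.869), H3K27ac (0.903) and H3K4me1 (1.05) over all members and for BRG1 in Mmp loci (0.727), and was 1.07 for BRG1 in Adamts loci. With the 20000 best-scoring peaks of each list, the ratio crossed 1 over all members for FLAG (0.951), BRG1 (0.955) and H3K27ac (0.857), for BRG1 in Timp loci (0.333), and for H3K4me1 in Timp loci (1.5). Under the same setting the NanogBiD-only share was 22.6% of FLAG, 25.4% of BRG1, 15.4% of H3K27ac and 27.3% of H3K4me1 regions, and the NanogWT-only share 28.8% for BRG1 and 26.2% for H3K27ac. Members with more peaks in NanogBiD were then 38.5% of those that differed in FLAG, 38.9% in BRG1, 23.1% in H3K27ac and 43.5% in H3K4me1. BRG1 in NanogBiD only was then at 66.7% of FLAG NanogBiD-only regions and 18.5% of shared ones, H3K4me1 in NanogBiD only at 0% of regions with both proteins in NanogBiD only, and the FLAG median log2 height ratio was 0. With a score of at least 100, the H3K4me1 ratio was 0.619 over all members, 0.613 in Mmp and 0.587 in Adamts loci. The NanogWT-only share was then 5.88% for BRG1 and 45.3% for H3K4me1 regions, the NanogBiD-only share 15.5% for H3K27ac and 11.6% for H3K4me1, and members with more peaks were 90.5% for BRG1 and 8% for H3K4me1. BRG1 in NanogWT only was at 3.85% of FLAG NanogWT-only regions, the octamer at 0% of summits, and promoters with a peak numbered 12 for FLAG in NanogWT, 10 and 11 for BRG1 and 16 for H3K27ac in NanogBiD. With summits of at least 15 tags, the H3K4me1 ratio was 0.617 over all members and 0.589 in Adamts loci. The NanogWT-only share was then 17.4% for FLAG, 23.7% for H3K27ac and 45.4% for H3K4me1, the NanogBiD-only share 38.0% for FLAG and 11.5% for H3K4me1, and members with more peaks 75% for FLAG and 11.1% for H3K4me1. BRG1 followed FLAG in NanogBiD only at 26.5% and in NanogWT only at 0%, and H3K4me1 in NanogBiD only was at 0% of regions with both proteins in NanogBiD only. With 50 kb flanks 75% of the members that differed had more FLAG peaks, and with 5 kb flanks 15.4% of regions with both proteins in NanogBiD only had H3K4me1 in NanogBiD only. With score in place of height the median log2 ratio was -0.0218 for FLAG and 0.0700 for H3K27ac, both with the sign changed, and 0.272 for BRG1. Within 25 bp of a summit AP-1 was at 0.980% and TEAD at 1.96%, and within 100 bp AP-1 was at 10.3%, the octamer at 3.92% and TEAD at 12.7%. Depth is unknown, so a peak missing from a list may lie below its threshold. No paired analysis was possible because replicates were merged into 1 list per group and the labels number none of them.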
